A study of Mus musculus with 4 samples.

Results

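The chimeras of the miR-297, miR-466, miR-467 and miR-669 miRNAs were examined in plantaris muscle of mice after mechanical overload (MOV), in which synergist muscles are ablated so that the plantaris bears their load. The members were selected on the miRNA name called for each chimera, as all entries named mmu-miR-297, mmu-miR-466, mmu-miR-467 or mmu-miR-669 with any letter or arm, an entry being 1 miRNA in 1 Ago2 peak. There were 1428 such entries of 93468 in the control library and 1236 of 100897 in the mimic library. They fell in 1349 of the 20754 control peaks and in 1154 of the 21872 mimic peaks. The group was taken up because its names had many entries in these same libraries, so its size and its leading member are descriptions.

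Chimeric eCLIP-seq crosslinks and pulls down Ago2, the Argonaute protein that holds a miRNA on its target, and ligates the miRNA to the RNA fragment held with it, so that 1 read names a miRNA and a target. The libraries, titled MOV_Control and MOV_Mimic, came from adult male C57BL/6J mice aged 5 months after 10 days of MOV. The control plantaris had been injected with a scramble control lentivirus and the mimic plantaris with a lentivirus expressing a miR-1 mimic. Both viruses used a CMV promoter and carried a green fluorescent reporter, so both muscles carried the overload and a virus. Whole muscle was used, in which not every fibre is infected, each group was 1 library, and the input library of each group was not analysed here. Per the methods, mice received the control virus in the left plantaris and the mimic virus in the right, so side and treatment cannot be told apart. Whether both libraries came from 1 animal was not stated. With no replicate, every interval below is a 95% interval that covers counting error only, no test between the groups was possible, and each difference compares these libraries.

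In mice most hairpins of this family lie in an intron of Sfmbt2, a Polycomb group gene that is imprinted and active in the placenta, where the cluster is best known. The cluster is found in rodents and its hairpins arose by repeated duplication, so that many mature sequences differ by few bases and are rich in alternating U and G on the 5p arm or C and A on the 3p arm. A miRNA finds its target mainly through its seed, the bases 2 to 8 counted from its 5′ end.

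The annotation (RefSeq, GRCm38.p6) held 81 hairpin genes of these names. Of these, 71 lay within Sfmbt2 (chr2:10370440-10595253), in a stretch of 51.6 kb, and 10 lay elsewhere on 7 chromosomes. Of the 47 names found in either library, 37 had hairpins only in Sfmbt2, 7 only elsewhere and 3 in both places. The leading name, miR-466i-5p, belongs to the second kind, because its hairpin gene Mir466i lies at chr13:17747473-17747593. For this name, and so for most entries, the word cluster does not describe the locus. No entry of any miRNA lay in Sfmbt2 or on a hairpin of the family in either library.

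RefSeq gave mature sequences for 6 of the 47 names. All 6 have hairpins only outside Sfmbt2, and miR-466i-5p is not among them, so seeds of the names in the cluster were not compared. They are shown, 5′ to 3′ with the seed in capitals, for the alternating bases and the seeds of these 6 names:
mmu-miR-466i-3p: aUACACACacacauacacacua
mmu-miR-466q: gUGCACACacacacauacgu
mmu-miR-467g: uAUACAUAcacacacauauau
mmu-miR-466k: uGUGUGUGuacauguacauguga
mmu-miR-467h: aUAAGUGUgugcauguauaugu
mmu-miR-669n: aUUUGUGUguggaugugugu
All 6 seeds were distinct, and no name outside the family shared one of them, among the 543 names in the libraries with a mature sequence. The longest unbroken alternation of C and A was 12 bases in miR-466q and 11 bases in miR-466i-3p, and the longest of U and G was 9 bases in miR-466k. Each of these 6 names had few entries, with at most 7 in the control library and 8 in the mimic (miR-466i-3p).

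The family took 1.53% (1.45 to 1.61) of all entries and 1.73% (1.68 to 1.78) of the 232408 chimeric reads of the control. In the mimic it took 1.23% (1.16 to 1.29) of entries and 1.25% (1.21 to 1.29) of 259207 reads. As a check of the tissue, all 8 markers of skeletal muscle fibre held chimeric reads of some miRNA, 35141 reads in the control library and 46176 in the mimic. Macrophage markers held 42.6 and 61.1 reads over 4 genes, endothelial markers 20.5 and 39.1 over 3 genes, and the 2 haemoglobin genes 16.8 and 22.8. The 5 fibroblast markers held 6117 and 5894 reads. The part of these cells in the results below was not tested.

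A single name dominated. miR-466i-5p had 1194 entries in the control library and 955 in the mimic, which was 83.6% and 77.3% of the family's entries. Its summed reads were 3740 (3621 to 3862) in the control and 2908 (2803 to 3016) in the mimic, or 93.1% and 89.7% of the family's reads. miR-466f-3p came next, with 97 entries and 150 reads in the control and 100 entries and 148 reads in the mimic. It was the only other name with more than 19 entries in a library.

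The remaining 45 names held 137 entries in the control library and 181 in the mimic. Among them miR-669o-3p had 9 and 19 entries, miR-669p-5p had 7 and 16, and miR-466d-3p had 4 and 13. miR-466h-3p (9 and 8), miR-466i-3p (7 and 8), miR-467a-5p (7 and 8) and miR-297a-5p (8 and 6) were near level. miR-466p-3p had 13 entries in the mimic and none in the control, with 12.5 reads. The reverse held for miR-466c-3p (5.53 reads) and miR-466e-3p (3.01 reads), each with 6 control entries and no mimic entry. Of the 47 names, 32 occurred in both libraries, while 6 were confined to the control library and 9 to the mimic. By name group, miR-466 had 20 names, miR-669 had 14, miR-467 had 9 and miR-297 had 4. Single entries of these 45 names were small, the highest holding 11.1 reads in the control library and 10.0 in the mimic. A pair of them stood above the rest in reads: miR-466g had 5 entries in each library with 17.9 and 19.7 reads, and miR-466h-5p had 5 and 7 entries with 16.1 and 30.5 reads.

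**Figure D1:**
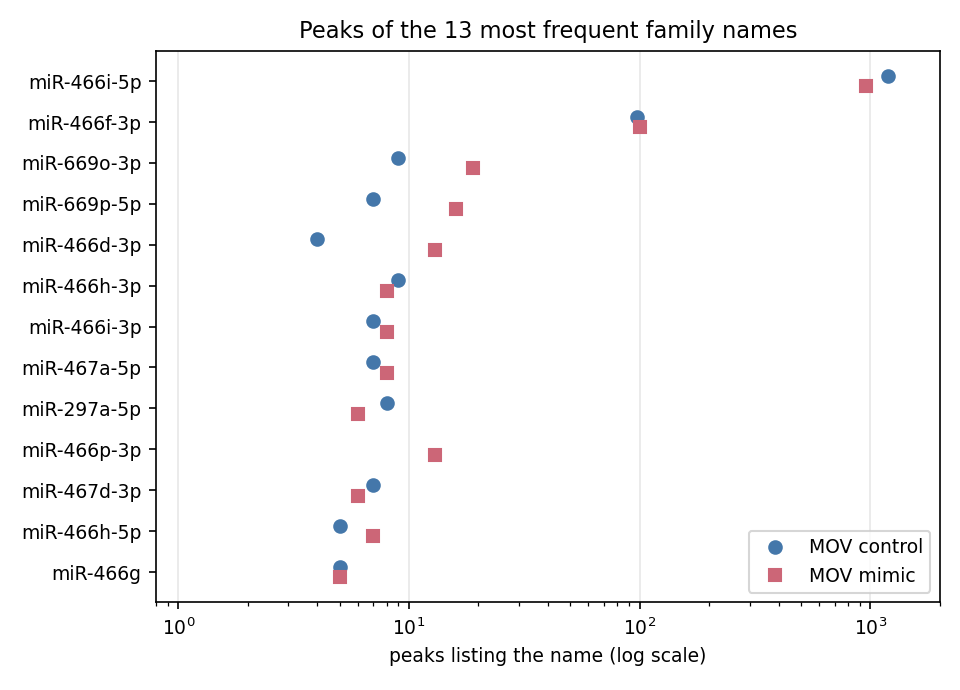
Number of peaks that list each of the 13 most frequent family names (horizontal, log scale) in the MOV control (circles) and the MOV mimic (squares), 1 library each. miR-466i-5p, with 1194 and 955 peaks, lies far to the right of miR-466f-3p (97 and 100) and of all others, and miR-466p-3p has no control symbol because no control peak listed it.

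Peaks with a family name had about the usual length. Their median was 60 nt (quartiles 45 and 78) in the control and 61 nt (46 and 81) in the mimic, against 58 nt and 59 nt for peaks without one. The family peaks ranged from 4 to 353 nt in the control and from 2 to 252 nt in the mimic. Within the family the peaks of miR-466f-3p were longer, with medians of 78 and 77 nt.

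How many miRNAs were listed at a peak set these peaks apart. A family name was the only name in 440 of 1349 peaks of the control (32.6%, 30.1 to 35.2) and in 315 of 1154 of the mimic (27.3%, 24.7 to 30). Peaks without a family name had a single miRNA in 8.82% and 9.28%. This came from miR-466i-5p, which stood alone in 434 control peaks (36.3% of its peaks) and 307 mimic peaks (32.1%). It alone made up 20.2% of the 2151 single-name peaks of the control and 13.7% of the 2237 of the mimic.

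A background of 148 miRNAs with at least 50 entries in each library, 2 of them family names, places these values. The other 147 miRNAs stood alone in a median of 0.218% of their peaks in the control library and 0.357% in the mimic. The next highest was miR-133a-3p, an abundant miRNA of muscle fibres, at 5.47% in the control, and miR-466f-3p at 8.0% in the mimic. Reads per entry were also highest for miR-466i-5p, with a median of 2.33 reads in the control library and 2.21 in the mimic, where the highest of the others had 1.08 and 1.03. miR-466i-5p had the most reads of all names in 72.6% of its control peaks and 69.0% of its mimic peaks. Across the others the median of that share was 11.1% and 10.8%, and the highest 47.6% and 47.2%. By number of entries 22 miRNAs of the background exceeded it in the control library and 27 in the mimic.

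**Figure D2:**
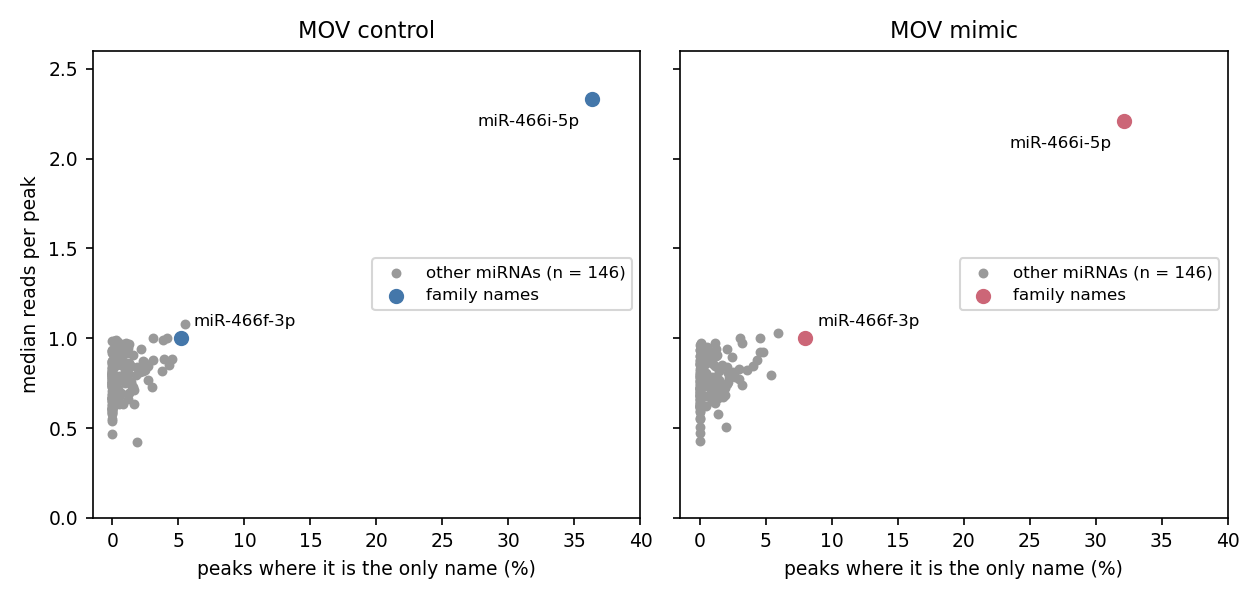
For each of 148 miRNAs with at least 50 peaks in both libraries, the percent of its peaks in which it is the only name (horizontal) against its median reads per peak (vertical), for the MOV control (left) and the MOV mimic (right). miR-466i-5p lies alone at 36.3% and 2.33 reads in the control and at 32.1% and 2.21 reads in the mimic, while miR-466f-3p lies at the edge of the other miRNAs.

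Because so many miR-466i-5p peaks list no other name, the names beside it were compared among peaks with several names. There miR-133a-3p was listed in 30.7% (27.4 to 34.1) of the 760 control peaks with miR-466i-5p, against 37.8% (37.1 to 38.5) of those without it. In the mimic it was listed in 34.9% (31.2 to 38.7) of 648 peaks, against 39.5% (38.8 to 40.2). miR-1a-3p, the miRNA of the mimic, was near level, at 27.0% (23.8 to 30.3) against 28.2% (27.5 to 28.9) in the control and at 30.9% (27.3 to 34.6) against 30.8% (30.2 to 31.5) in the mimic. miR-214-3p was listed more often beside miR-466i-5p, at 10.9% (8.79 to 13.4) against 7.51% (7.13 to 7.91) in the control and at 15.1% (12.5 to 18.1) against 7.09% (6.73 to 7.46) in the mimic. So was miR-206-3p, at 25% (22.0 to 28.2) against 21.2% (20.6 to 21.8) in the control. Its shares in the mimic were 23.3% (20.1 to 26.8) against 19.8% (19.2 to 20.4), and these intervals overlapped.

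Family names seldom shared a peak with each other. Only 1 family name was listed in 1290 of the 1349 control peaks and in 1089 of the 1154 mimic peaks, and 4 was the most. The peaks with several gave 104 pairs of names in the control library and 103 in the mimic, of which miR-466f-3p with miR-466i-5p was the most common (24 and 16). The reads of a pair were equal, within 1e-06, in 3 and 9 pairs, so the values were in most cases not an even split of the same reads. The family held a median of 77.1% of the reads of its peaks in the control library and 69.0% in the mimic.

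Control and mimic were then set side by side. The family had 4017 reads in the control library and 3243 in the mimic (ratio of mimic to control 0.807, 0.771 to 0.846), while all other names had 228391 and 255964 (1.12, 1.11 to 1.13). The lower value was that of miR-466i-5p, with a ratio of 0.778 (0.741 to 0.816), or 0.697 (0.664 to 0.732) after division by the library totals. miR-466f-3p had a ratio of 0.988 (0.781 to 1.25). The family without miR-466i-5p had 277 and 334 reads (1.21, 1.03 to 1.42), a ratio of 1.08 (0.919 to 1.27) after library totals, whose interval includes 1. In whole muscle, fewer cells of a type and less RNA per cell cannot be told apart.

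Against the other miRNAs of the background, 9 of 147 had a lower ratio than miR-466i-5p and 138 a higher one. Among the 37 others with at least 1000 reads in each library none was lower, and the nearest was let-7e-5p at 0.896. That minimum also removes names that fell below it in the mimic. One such name was miR-127-3p, with 1094 reads in the control library and 682 in the mimic, a lower ratio of 0.623. A change of at least 1.5-fold after library totals was seen upward in 4 of the 148 (2.7%) and downward in 6 (4.05%), and neither miR-466i-5p nor miR-466f-3p was among them. The number of entries was lower too, with a ratio of 0.80 (0.734 to 0.872) for miR-466i-5p. The mean reads per entry were 3.13 in the control library and 3.05 in the mimic.

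Peaks were also split by the number of names. Where miR-466i-5p was the only name, it had 1384 and 984 reads (0.711, 0.655 to 0.772). In peaks with more names it had 2355 and 1925 (0.817, 0.769 to 0.869), and these intervals overlapped at their ends. In entries of 10 or more reads the ratio was 0.907 (0.822 to 1.0), or 0.813 (0.737 to 0.897) after library totals, from 36 entries in the control library and 34 in the mimic. Other names in single-name peaks had a ratio of 1.13 (1.09 to 1.18), which lay on the other side of 1.

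The 45 less frequent names had 127 reads in the control library and 186 in the mimic (1.47, 1.16 to 1.85). Names with hairpins only in Sfmbt2 had 111 and 169 reads (1.52, 1.19 to 1.95). After library totals these ratios were 1.31 (1.04 to 1.66) and 1.36 (1.07 to 1.75). By name group, without miR-466i-5p, the ratio was 1.64 (1.02 to 2.72) for miR-669, 1.84 (0.924 to 3.64) for miR-467, 1.13 (0.936 to 1.35) for miR-466 and 0.812 (0.300 to 2.17) for miR-297. After library totals the interval of each included 1, that of miR-669 being 0.917 to 2.44 about 1.47.

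The lower ratio of miR-466i-5p was spread over the genome. Of 21 chromosomes, 19 had a ratio under 1, and in 20 the ratio was below that of names outside the family. The lowest was 0.503 (0.345 to 0.732) on chromosome 18, with 89.2 and 44.9 reads, and chromosome 8 followed at 0.529 (0.420 to 0.663). The highest were chromosome X at 1.36 (0.93 to 2.0), with 50 and 68.0 reads, and chromosome 4 at 1.1 (0.862 to 1.40).

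**Figure D3:**
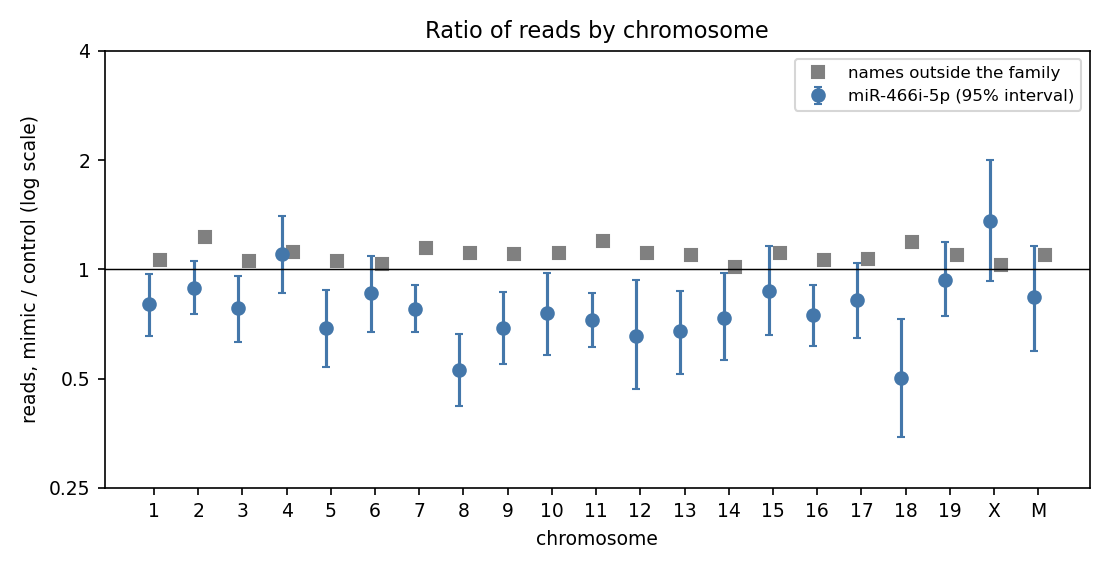
Ratio of reads, mimic over control (vertical, log scale), for miR-466i-5p (circles, bars are 95% intervals for counting error) and for all names outside the family (squares) on each chromosome, M being the mitochondrial one. The circles lie below the line at 1 on 19 of 21 chromosomes and below the square on 20, chromosome X being the exception.

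Few family peaks were found in both libraries. Of the control entries, 27.3% (25 to 29.7) were overlapped by a mimic entry of the same name and strand, and 29.5% (26.9 to 32.2) of those of miR-466i-5p, against 35.6% for names outside the family. As a share of single miRNAs this was not low, because the median of the other 147 was 24.5% and 53 of them were above miR-466i-5p.

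At matched reads the control entries of miR-466i-5p were found again in the mimic less often than those of other names pooled, except the largest. Pooling gives most weight to names with many entries, and single miRNAs were not compared by class of reads. With 1 to under 3 reads 19.7% (16.6 to 23.2) were overlapped, against 39.3% (38.8 to 39.9) for names outside the family. With 3 to under 10 reads the shares were 50% (44.4 to 55.6) and 81.6% (80.7 to 82.5). With 10 or more reads they were 94.4% (81.3 to 99.3) and 97.1% (96.4 to 97.7). In single-name peaks of 3 to under 10 reads, 36.8% (29.2 to 45.0) of the miR-466i-5p peaks were overlapped, against 53.3% (48.7 to 57.8) for other single names. Counted from the mimic, the shares of miR-466i-5p were higher, at 28.3% (24.3 to 32.5) with 1 to under 3 reads. With 3 to under 10 reads that share was 63.2% (56.3 to 69.7), and names outside the family were not counted in this direction. Of the 842 control entries of miR-466i-5p without a counterpart, 704 (83.6%) had no mimic peak of any miRNA at the place. The same share was not computed for other names, so it cannot be read as particular to miR-466i-5p. In 36.3% of its control peaks no other name was listed. Entries of 10 or more reads without a counterpart lay in Coa5 (19.5 reads), which encodes an assembly factor of cytochrome c oxidase, and Cacfd1 (16.5 reads). These genes were picked after their values were seen, and both had family reads elsewhere in the mimic, Coa5 11.1 in 2 entries and Cacfd1 21.7 in 3.

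**Figure D4:**
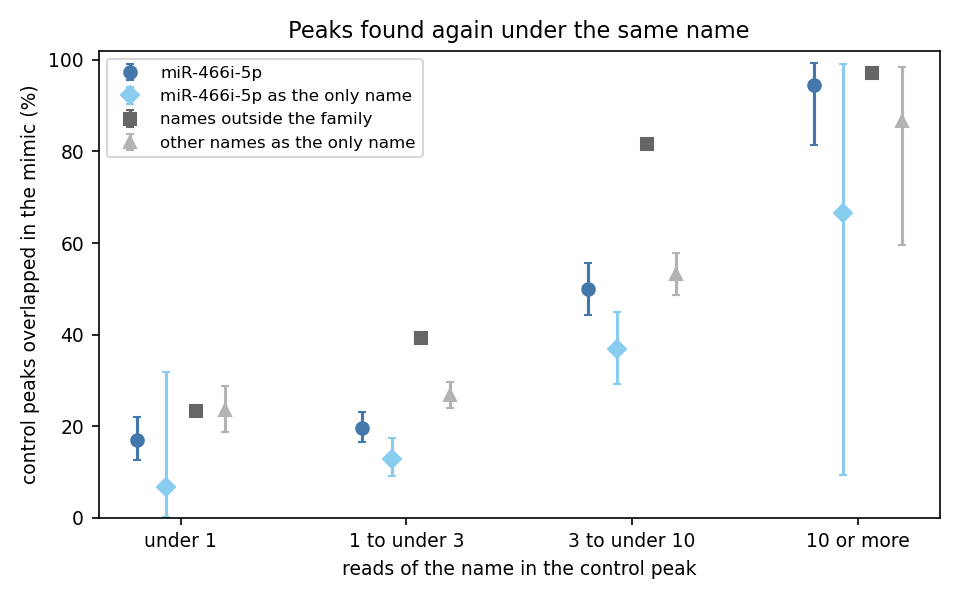
Percent of control peaks overlapped in the mimic by a peak of the same name and strand (vertical), by the reads of the name in the control peak (horizontal), with 95% Clopper-Pearson intervals. miR-466i-5p (circles) lies below the names outside the family (squares) up to 10 reads, at 50% against 81.6% from 3 to under 10 reads, and meets them at 10 or more; diamonds and triangles show the peaks where it, or another name, is the only one.

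The 376 family peaks present in both libraries were slightly lower in the mimic by their median. The log2 ratio, mimic over control, had a median of -0.12 (-0.25 to -0.01), and 42.0% were higher in the mimic. For names outside the family the median was 0.05 and 52.1% were higher. After library totals these medians were -0.28 for the family and -0.11 for other names. Single peaks varied widely, with a standard deviation of 1.65 for the family and 2.01 for other names. Where both libraries had at least 3 reads, the family median was -0.08 (-0.25 to 0.07) over 133 peaks, beside 0.12 (0.10 to 0.14) over 6175 peaks of other names.

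Among shared peaks of at least median mean reads, the largest changes were still on low reads. Upward they were in Qsox2, a sulfhydryl oxidase gene (0.145 to 8.70 reads), in Kpna4 (1.40 to 12.8) and in Txlnb (0.964 to 6.89). Downward they were in Amot, which encodes the junction protein angiomotin (6.39 to 0.403), in Reep4, a gene of endoplasmic reticulum shape (9.0 to 0.967), and in Ldlrad4, an inhibitor of TGF-beta signalling (8.73 to 1.0). All 6 were peaks of miR-466i-5p. Some of these pairs joined peaks of unlike bounds, so their changes may partly reflect where a peak was cut. The Ldlrad4 pair, chr18:68113141-68113287 with chr18:68113095-68113150 (control first), overlapped only at the ends. The Kpna4 pair set chr3:69085378-69085419 against the wider chr3:69085322-69085438. All family reads of Kpna4 were level, at 43.0 and 44.4. This Kpna4 peak lies beside the main peak of that gene, which is described next and held similar reads in both libraries.

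The tallest family peak lay at chr7:142557544-142557648 in Nctc1, a long noncoding RNA gene of the Igf2 and H19 locus that is transcribed in muscle. It held 156 reads (132 to 182) of miR-466i-5p in the control, 92.9% of all reads of the peak, and 143 (121 to 168) in the mimic, 80.5%. Next in the control came Col8a1, which encodes a chain of collagen VIII, at chr16:57624665-57624815 with 76.1 reads (59.9 to 95.1), and 39.7 (28.6 to 54.5) in the mimic. Their intervals did not overlap.

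A pair of adjacent peaks on the plus strand, chr2:119601789-119601863 and chr2:119601874-119601956, lay in no gene of the annotation, 1.04 and 1.13 kb from Oip5os1, a long noncoding RNA gene on the same strand. The first held 31.0 reads in the control library and 45.3 in the mimic, and the second 33.8 and 31.9, in each case over 92% of the reads of the peak. The peak in Kpna4, which encodes an importin alpha of nuclear import, held 35.8 family reads at chr3:69085220-69085301 in the control library and 31.6 in the mimic, where miR-466i-5p was its only name. The fourth peak of the mimic was on the mitochondrial gene ND4, with 38.8 reads that were 4.13% of the 939 reads at the place, where 64 names were listed. There the family was a small fraction of a crowded peak, whereas in the nuclear peaks above it held at least 70% of the reads.

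Summed over genes, the family was spread thinly. It had entries in 840 of the 6628 genes with any chimera in the control (12.7%) and in 749 of 6921 in the mimic (10.8%). Of these, 404 were the same genes in both libraries, 48.1% of the control's and 53.9% of the mimic's. For miR-466i-5p alone these shares were 48.6% and 57.3%. Among the 21 other miRNAs with a number of control genes within 1.5-fold of its own, the medians were 44.6% (33.2% to 51.2%) and 43.2% (28.3% to 48.2%), and 4 were above it by the first measure and 0 by the second. Of all genes with any chimera, 83.3% and 79.8% were in both libraries. A single family entry was all that 68.6% of the genes had in the control library and 69.6% in the mimic.

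Nctc1 led both libraries with 177 reads (152 to 205) in the control and 164 (140 to 191) in the mimic, 88.6% and 79.3% of all chimeric reads of that gene. Neat1, the long noncoding RNA that scaffolds paraspeckles, held 53.4 and 52.2 reads, 29.2% and 26.0% of its reads. These noncoding RNAs were level between the libraries, with ratios of 0.927 (0.745 to 1.15) and 0.979 (0.656 to 1.47).

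Col8a1 was lower in the mimic, with 78.5 and 43.3 reads (0.552, 0.366 to 0.799). All chimeric reads of the gene were lower too, at 122 and 70.3, of which the family was 64.3% and 61.6%. Gse1, which encodes a coiled-coil protein of chromatin complexes, had 42.8 and 22.6 reads (0.528, 0.308 to 0.908) and 17 and 9 entries. Tead1, the transcription factor that pairs with YAP, had 31.5 and 14.7 reads (0.468, 0.236 to 0.891), and 89.0 and 47.5 reads of all miRNAs. Lpin1, a phosphatidate phosphatase gene of lipid synthesis, was higher in the mimic, with 17.3 and 33.8 reads (1.95, 1.09 to 3.82, or 1.75, 0.974 to 3.42, after library totals), while all its chimeric reads were 41.4 and 47.3.

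The other genes high in family reads had ratios whose intervals included 1. They were Kpna4 (43.0 and 44.4 reads), Myadm, which encodes a membrane protein first found in myeloid cells (46.0 and 36.8), Amotl1, a relative of angiomotin (43.0 and 39.3), and Nufip2, which encodes an RNA-binding protein (33.4 and 30.8). Likewise Tns3, a tensin gene of focal adhesions, had 32.9 and 24.6 reads, Ryr1, the calcium release channel of the sarcoplasmic reticulum, 23.7 and 29.3, and Slc6a8, the creatine transporter, 19.2 and 29.3. In most of these the family held a large part of the gene's chimeras, from 29.3% to 59.7% in the control, but in Ryr1 only 5.32%.

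**Figure D5:**
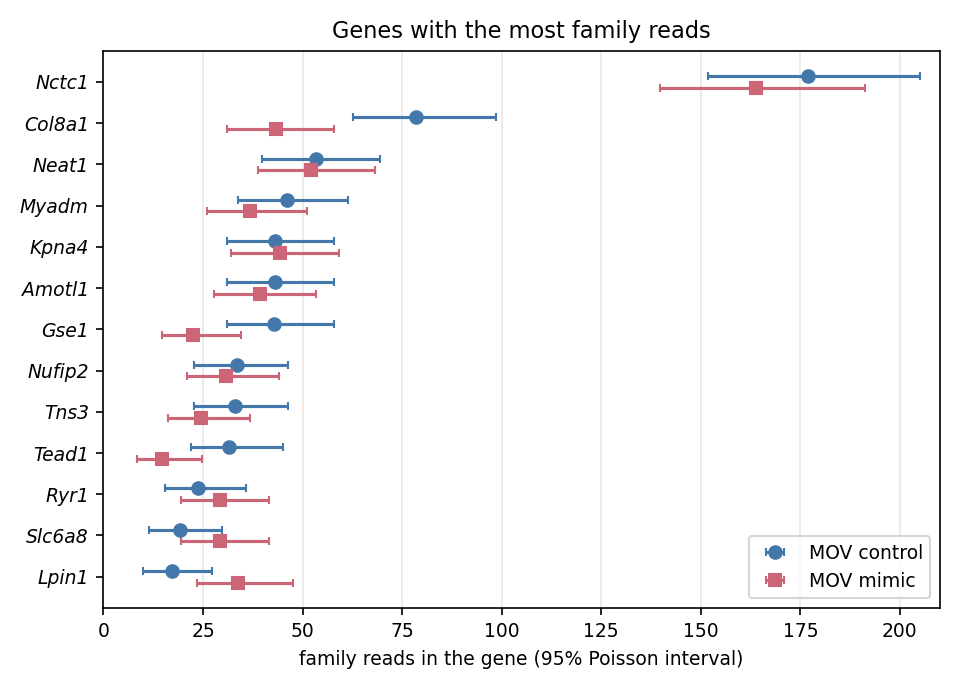
Family reads (horizontal, with 95% Poisson intervals) in the 13 nuclear genes that were among the 10 highest in at least 1 library, for the MOV control (circles) and the MOV mimic (squares). Nctc1 lies apart at 177 and 164 reads, Col8a1 is lower in the mimic (78.5 and 43.3), and the intervals of most other genes overlap widely.

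By number of entries, with genes picked here after the counts were seen, Rn18s-rs5 came first with 19 and 21 family entries. It is a copy of 18S ribosomal RNA annotated as a pseudogene of unknown strand, so its entries were not matched on strand. Gse1, also high in family reads, was second with 17 and 9. Actn2, the alpha-actinin of the Z-disc, had 11 and 13, and Ttn, which encodes titin, 12 and 11. The family's part of the reads differed widely between them, at 71.1% and 47.3% in Gse1, 3.59% and 2.50% in Actn2, 0.140% and 0.112% in Rn18s-rs5 and 0.0422% and 0.0257% in Ttn. Reads on ribosomal RNA may come from any of its near-identical copies.

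The mitochondrial chromosome, which gave 13.9% and 13.6% of the reads of other names, gave 2.22% and 2.32% of the family's. Family entries lay in ND4 (31.5 and 38.8 reads), ND5 (19.3 and 11.9), mt-Rnr1 (17.6 and 12.3), mt-Rnr2 (9.22 and 2.03) and CYTB (7.87 and 2.58). ND1, ND2 and COX1 held 2.16, 1.0 and 0.524 reads in the control and 3.31, 0.366 and 3.23 in the mimic. TrnM held 0.653 in the mimic alone. In each of these genes the family was under 4% of the chimeric reads, 3.60% and 3.98% in ND4 and 0.165% and 0.127% in mt-Rnr1.

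Gene lists of the tissue were set against the background of 12.7% and 10.8% of genes. The lists hold highly expressed genes with many entries of all kinds, so a family entry is easily met in them, and their share of reads is given beside the count. Of 26 sarcomere and Z-disc genes with chimeras, 18 held a family entry in the control library and 16 in the mimic, but the family was 0.198% and 0.117% of their reads. Of 13 calcium handling genes 5 did in each library (1.19% and 1.32% of reads), Ryr1 among them. Of the mitochondrially encoded genes with chimeras, 8 of 11 did in the control and 8 of 10 in the mimic (0.319% and 0.247%).

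Of 19 extracellular matrix genes, 11 held a family entry in the control library and 4 in the mimic, with 47.0 and 21.4 reads (0.493% and 0.241%). All 4 in the mimic, Col1a1, Col3a1, Fn1 and Bgn, were among those of the control. Glycolytic and creatine kinase genes had 3 of 13 and 2 of 14, chaperones 2 of 9 and 1 of 8, and translation factors 0 of 9 and 1 of 9. Listed noncoding RNAs had 4 of 7 and 3 of 7. Of the miRNA machinery 1 of 7 did in the control and 2 of 7 in the mimic, Tnrc6b, the partner of Argonaute in silencing, in both. In all but the last of these lists the family's share of reads was below its share of 1.73% and 1.25% of all reads in the respective library, apart from calcium handling in the mimic.

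miR-466i-5p lay in longer genes than other names. Spans and positions were taken over 1132 of its 1194 control entries and 900 of its 955 mimic entries. For names outside the family 87428 and 94536 entries were used. A gene was counted once for each of its entries. The median span of the gene of an entry was 91.0 kb in the control and 92.0 kb in the mimic, against 32.7 and 34.3 kb for entries of names outside the family. In single-name peaks the medians were 136 and 105 kb, against 52.5 and 51.4 kb. miR-466f-3p was like it, at 90.7 and 71.3 kb.

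Along the gene, over the same entries, those of miR-466i-5p lay less often near the 3′ end. Within the last 5 kb of the span were 29.4% (26.8 to 32.2) of them in the control and 32.7% (29.6 to 35.8) in the mimic, against 49.3% and 48.5% of entries of other names. More than 5 kb from both ends were 63.5% and 60.8%, against 43.0% and 44.3%. Single-name peaks showed this most. In them 18.4% (14.9 to 22.5) of miR-466i-5p entries in the control and 22.7% (18.1 to 27.8) in the mimic were in the last 5 kb, against 42.3% (39.9 to 44.7) and 41.6% (39.4 to 43.9) for other single names. Exons and introns of this build were not used here, so these are positions in the gene span and not in the transcript, and a longer gene has less of its span near its ends.

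Over the same entries as for gene span, long noncoding RNA genes took 8.72% of the reads of miR-466i-5p in the control and 9.62% in the mimic. For other names these shares were 3.40% and 3.60%. By entries the shares were 2.74% and 2.56% against 1.65% and 1.56%. Most of the difference in reads lay in the Nctc1 and Neat1 peaks described above. Outside all genes of the annotation were 2.59% and 2.67% of family entries, against 1.1% and 1.07% of others.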

How the data were processed

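Chimeric eCLIP-seq of plantaris muscle was measured in 4 libraries, and the 2 libraries with processed files were grouped by title as MOV control and MOV mimic, with 1 library per group. The deposited values were estimated counts, the chimeric reads of 1 miRNA in 1 peak, mostly not whole, and the authors had not scaled them to depth. Per the methods, adapter trimming and a filter on repeats were followed by STAR alignment, removal of PCR duplicates and CLIPper peak calling by the authors. The methods also describe an amplification of cDNA with a miR-1 primer. Whether that step applied to the deposited values was not determined here. How reads were divided between alike miRNAs was not given in the sources used here, so a read of 1 family member may be listed under another. The submitters' processing notes name UMI-tools 1.1.1, cutadapt 3.2, STAR 2.7.7a, Bowtie 1.2.3, HOMER 4.11 and the build mm10, which the coordinates fit. The methods name mm9. No sequence was read at the peaks, since no genome of the files' build was used here.

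Entries were selected by name. Each peak was given the RefSeq gene of GRCm38.p6 with the largest overlap on its strand, leaving out miRNA genes. The strand was known for 28097 of 49997 genes from that build and for 9321 by name from GENCODE, and a gene of unknown strand was used only where no other fitted. Intervals were exact Clopper-Pearson for shares, Poisson for reads and conditional binomial for ratios, on reads rounded to whole numbers, and order-statistic for medians. Depth was the sum of chimeric reads. Overlap needed 1 nt on the same strand under the same name. Shared peaks were each other's largest overlap. Python 3.11.15, pandas 2.3.3, numpy 2.4.6, scipy 1.17.1 and matplotlib 3.10.9 were used, and the interval and overlap functions were tested on simulated data.

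The names described were the 10 with the most entries and those with the 3 highest and 3 lowest ratios among names with at least 50 entries in each library, which only 2 names had. Genes were the 10 nuclear genes with the most family reads per library, the mitochondrial genes with an entry and Sfmbt2. Peaks were the 5 tallest per library and the 3 largest rises and falls at shared peaks of at least median reads. The members and lists were chosen with earlier results of these data known, and the shares among peaks of several names and the recurrence of genes of other miRNAs were added after the values were seen. The alternatives were a minimum of 3 reads, leaving out miR-466i-5p, the mitochondrial chromosome or Nctc1, library totals, other overlap rules and 2 entries per gene.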

Additional observations from a re-analysis of the deposited data

How the results depend on the processing

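Of 65 alternative values, 24 stayed within the counting interval of the value reported (for a count of genes, within 1.5 times), 40 moved and 1 changed direction. That 1 was the family's ratio of reads, 1.21 without miR-466i-5p, or 1.08 (0.919 to 1.27) with library totals as well. Without this name, the family was 0.254% of entries and 0.121% of reads in the control and 0.281% and 0.13% in the mimic. Its peaks then listed a median of 4 names in each library, 6.31% and 3.98% of them had a single name, their median length was 69 and 72 nt, its genes numbered 152, 184 and 49 in both, and 16.2% of control entries were overlapped. With at least 3 reads per entry, the family was 3.41% of entries and 1.53% of reads in the control and 2.32% and 1.04% in the mimic, and miR-466i-5p was 96.2% and 92.1% of its entries. The median was then 1 name per peak in each library, 88.9% and 91.4% of the peaks had a single name, the median length was 70 and 69 nt, the genes numbered 280, 202 and 118 in both, and the overlap was 37.6%. Without the mitochondrial chromosome the family's share of reads was 1.96% and 1.41%. Library totals moved the ratio to 0.724 and the median log2 change at shared peaks to -0.28. The overlap was 22.1% with 50% reciprocal overlap, 32.2% with any family name and 31.7% counted from the mimic. With 2 entries per gene the genes numbered 264, 228 and 120 in both. Leaving out Nctc1, an alternative chosen after seeing the data, gave a ratio of 0.802. The single-name and member shares were also recomputed only after seeing the data.

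No paired analysis was possible because the groups held no replicates to pair. The search for seed matches at the peaks, with either seed length, was not run, since no genome of the files' build was used here. Intervals cover counting error alone, and no spread between animals or preparations was measured. Most entries of the 45 less frequent names rested on about 1 read, so only their sums bear comparison.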

Other observations

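Outside the family, 2 names had an unbroken alternation of U and G of at least 10 bases in the RefSeq mature sequence. They are shown, 5′ to 3′, for comparison with the family sequences above, and were picked after the family's values were seen:
mmu-miR-574-5p: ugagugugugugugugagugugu
mmu-miR-1187: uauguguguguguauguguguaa
The alternation was 13 bases in miR-574-5p and 11 bases in miR-1187. miR-574-5p had 77 entries and 75.2 reads in the control and 68 entries and 69.6 reads in the mimic (0.926, 0.664 to 1.31), and miR-1187 had 1 entry in each library. Unlike miR-466i-5p, miR-574-5p was the only name in no control peak and in 1 mimic peak, and its median was 0.854 and 0.820 reads per entry. It shared 24 of its control peaks and 12 of its mimic peaks with miR-466i-5p, and both miR-1187 peaks listed miR-466i-5p.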
